A study of Homo sapiens with 6 samples.

Results

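The ion-exchange and cotransport solute carriers of the SLC4, SLC8, SLC9, SLC12, SLC24 and SLC26 families move sodium, potassium, calcium, protons, chloride, bicarbonate and sulfate across cell membranes. Members were chosen by gene symbol alone, as every row of the gene tables in 1 of these 6 families, which gave 50 of 19940 rows. They comprised 10 SLC4, 4 SLC8, 11 SLC9, 9 SLC12, 5 SLC24 and 11 SLC26 genes. The choice used no measured value.

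These carriers are the transport machinery by which animal cells hold their volume and their pH. A cell that shrinks in hypertonic medium can regain water by taking up salt, either through a sodium-proton exchanger working beside a chloride-bicarbonate exchanger such as SLC4A2 (AE2), or through the sodium-potassium-chloride cotransporter SLC12A2 (NKCC1). The potassium-chloride cotransporters, among them SLC12A4, SLC12A5 and SLC12A7, release salt when a cell swells. Other family members set the pH of endosomes and the Golgi apparatus, clear calcium from the cytosol, or carry sulfate for matrix synthesis.

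Total RNA depleted of ribosomal RNA was sequenced from U2OS cells, a human osteosarcoma line, and the design's stated purpose was to assess transcriptional changes. All cells stably expressed GFP-DCP1A, a fluorescent fusion of an mRNA decapping factor, and were grown in McCoy's 5A medium with serum, penicillin-streptomycin and G418, so the isotonic controls shared the transgene and the drug. The isotonic group was kept in medium with 150 mM sodium (mock-supplemented with 1x PBS), the hypertonic group was kept for 4 h at 300 mM sodium (reached with 10x PBS), and the rescue group was returned to isotonic medium for 4 h after the hypertonic treatment. Each group had 2 libraries, numbered 1 and 2. The labels do not say that these came from separate cultures, nor whether the line is 1 clone, so p-values reflect the spread of these libraries alone, and that spread may be technical. Counted from the start of treatment, rescue cells were harvested later than the hypertonic cells. The rescue and the later harvest cannot be told apart. No time in mock-supplemented medium is given here for the isotonic cells, so a difference in harvest time from rescue is possible there too. In bulk RNA, a gene carried by fewer cells and less RNA per cell cannot be told apart either.

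The isotonic and hypertonic libraries did not group by their labels. Over 17388 genes, the SD of the log2 ratio between 2 libraries was 0.96 for isotonic 1 against isotonic 2 and 0.95 for hypertonic 1 against hypertonic 2. It was 0.18 for isotonic 1 against hypertonic 2, 0.19 for isotonic 2 against hypertonic 1 and 0.17 between the rescue libraries. The carriers followed the same order over the 49 with enough counts, with SDs of 0.96 and 0.91 within the isotonic and hypertonic groups and of 0.26, 0.19 and 0.20 for the other 3 pairs. All libraries are named here by their labels and stay in their labelled groups. An exchange of libraries between these 2 groups is possible and was not tested. It would change what each comparison of hypertonic with isotonic means, the absence of calls included. It would also change the groups and the spread behind both rescue comparisons, for the carriers called and for those that did not pass. Library totals ran from 90196278 to 105991428 counts, which makes counting error small for most carriers.

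Of the 10 bone lineage markers examined, RUNX2, ALPL, COL1A1, SPARC and SPP1 averaged at least 1 CPM, while SP7, COL1A2, IBSP and BGLAP were under 1 CPM (counts scaled to a common library total). The 10 summed to between 1667 and 2051 CPM over the 6 libraries. The 4 kidney tubule markers, of a tissue in which many of these carriers are best known, were all under 1 CPM, and their sum ran from 0.145 to 1.39 CPM. The 5 endothelial markers summed to between 8.14 and 29.3 CPM in the isotonic and hypertonic libraries and to 32.8 and 33.4 CPM in rescue, with VWF and KDR called higher by edgeR and 2 of the 5 under 1 CPM. Leukocyte markers, 4 of 6 of them under 1 CPM, summed to at most 8.16 CPM outside rescue and to 13.6 and 14.3 CPM in it, whereas the 6 epithelial markers summed to 467 and 492 CPM in rescue, within the 358 to 573 CPM of the other libraries, with EPCAM and KRT19 called higher and the other 4 not called. The summed signal of 386 olfactory receptor genes was 41.0 to 61.1 CPM outside rescue and 116 and 125 CPM in rescue. By library total, the endothelial, leukocyte and olfactory receptor sums, all low, were highest in rescue, as were many of the carriers below. The endothelial sum also differed within the isotonic and hypertonic groups. PECAM1, one of its genes, was at 3.59 and 24.7 CPM in isotonic 1 and 2, 23.9 and 3.48 in hypertonic, and 14.3 and 12.8 in rescue. The part of these genes in the results was not tested.

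Promoter sequences are shown for 4 carriers that differed between the crossed library pairs described below, 2 in each direction. They were chosen after their values were seen and are not the 4 with the widest differences. SLC12A2 and SLC9A9 were high in isotonic 2 and hypertonic 1, and SLC12A4 and SLC9A8 were high in isotonic 1 and hypertonic 2. Each line gives the 250 bases before the RefSeq start of the gene in GRCh38.p14, read 5′ to 3′ on the gene's strand. Capitals mark matches to TGANTCA, the core of the element bound by AP-1 factors.
SLC12A2 chr5:128083516-128083765, plus strand: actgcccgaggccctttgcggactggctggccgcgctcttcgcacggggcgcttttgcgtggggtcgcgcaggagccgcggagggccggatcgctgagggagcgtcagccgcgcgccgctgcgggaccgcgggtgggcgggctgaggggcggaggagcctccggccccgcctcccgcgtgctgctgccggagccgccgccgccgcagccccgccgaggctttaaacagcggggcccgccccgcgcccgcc
SLC9A9 chr3:143848469-143848718, minus strand: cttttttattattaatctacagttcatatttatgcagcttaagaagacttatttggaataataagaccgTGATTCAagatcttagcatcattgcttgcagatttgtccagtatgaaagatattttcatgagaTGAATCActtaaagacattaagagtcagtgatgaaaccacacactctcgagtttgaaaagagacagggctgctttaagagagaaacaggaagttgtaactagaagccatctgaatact
SLC12A4 chr16:67968695-67968944, minus strand: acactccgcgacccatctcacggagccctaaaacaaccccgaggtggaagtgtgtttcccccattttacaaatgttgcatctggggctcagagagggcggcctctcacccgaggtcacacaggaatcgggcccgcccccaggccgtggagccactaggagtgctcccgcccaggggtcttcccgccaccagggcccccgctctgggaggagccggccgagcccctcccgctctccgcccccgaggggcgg
SLC9A8 chr20:49812578-49812827, plus strand: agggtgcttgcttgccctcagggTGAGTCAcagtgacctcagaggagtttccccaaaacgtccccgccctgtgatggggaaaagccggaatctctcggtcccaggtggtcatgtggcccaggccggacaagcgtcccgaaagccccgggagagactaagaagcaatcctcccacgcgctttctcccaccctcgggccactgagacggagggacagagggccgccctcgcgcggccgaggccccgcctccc
The SLC9A9 stretch held matches that began 181 and 118 bases before the start, and the SLC9A8 stretch held 1 that began 227 bases before it. The SLC12A2 and SLC12A4 stretches held none, so 1 gene of each direction held a match and 1 did not. RefSeq windows of 300 bases, which add the 50 bases after the start, were found for 40 of the 50 members, 61 windows in all. Counted on both strands, TGANTCA was in 6 of these 61 windows (9.84%) and in 7.71% of 35116 windows of all genes. The core of the tonicity element, TGGAAA, was in 11 of 61 (18%) against 20.7% of all windows, and in none of the 4 sequences shown. The E-box CACGTG was in 6 of 61 (9.84%) against 7.26%, and the cyclic AMP element TGACGTCA was in 0 of 61 against 1.85%. A match is a match of letters only, and whether a factor binds there was not tested.

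The volume-recovery carriers come first. SLC12A2, which brings sodium, potassium and chloride into the cell (chr5:128083766-128189688), was at 89.5 and 156 CPM in isotonic 1 and 2. Hypertonic 1 and 2 had 149 and 89.2 CPM, and rescue 1 and 2 had 83.4 and 82.5 CPM; later values are given in the same order. It was thus 1.66-fold higher in hypertonic 1 than in isotonic 1, and 1.74-fold higher in isotonic 2 than in hypertonic 2. The labelled groups overlapped, and both rescue libraries lay below the other 4. In edgeR's quasi-likelihood test the rescue difference did not pass (adjusted p = 0.223 against isotonic and 0.238 against hypertonic).

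SLC4A2, a chloride-bicarbonate exchanger that takes part in volume recovery (chr7:151057210-151076527), was at 45.6 and 44.0 CPM in isotonic, 44.6 and 45.2 in hypertonic, and 18.9 and 17.5 in rescue. It varied little over the 4 isotonic and hypertonic libraries, with means of 44.8 ± 1.12 and 44.9 ± 0.445 CPM (SD, n = 2), and fell in rescue to 18.2 ± 0.943 CPM. The edgeR log2 fold change was -1.60 (SE 0.133) against isotonic, 3.02-fold lower, with adjusted p = 0.00891. Against hypertonic it was -1.61 (SE 0.133), with adjusted p = 0.00915 in edgeR. These uptake carriers therefore did not share 1 pattern: SLC12A2 followed the crossed pairs, and SLC4A2 was steady across them and lower in rescue. CDK5, which overlaps SLC4A2 over 1321 bases on the opposite strand, was at 1.90 to 3.61 CPM in the 6 libraries.

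**Figure D1:**
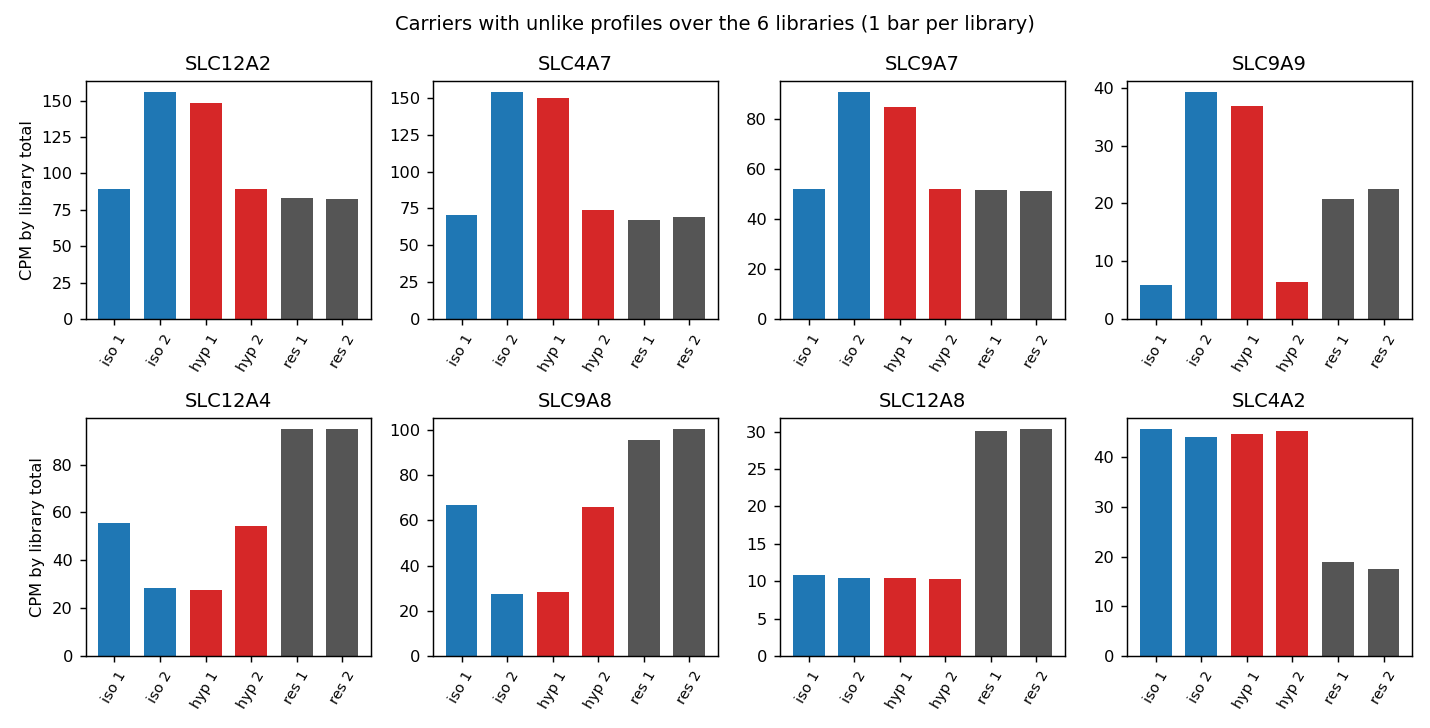
CPM by library total of 8 carriers chosen for their unlike profiles in the 6 libraries, with 1 bar per library (iso, isotonic; hyp, hypertonic; res, rescue). SLC12A2 is at 149 to 156 CPM in isotonic 2 and hypertonic 1 and at 82.5 to 89.5 in the other 4, while SLC4A2 stays at 44.0 to 45.6 CPM until rescue, where it is at 17.5 and 18.9.

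Hypertonic against isotonic, compared by label, gave no carrier past the threshold of adjusted p under 0.05. The edgeR test called 0 of 50 carriers (0% against a background of 0.0% of all 18208 genes tested), with 0 carriers and 52 genes at an unadjusted p under 0.05. DESeq2 called 0 carriers and limma voom 0. Set side by side within each number, however, the carriers differed in opposite directions, as the grouping of the libraries described above implies. Of the 43 carriers with a mean of at least 1 CPM, 40 had opposite signs in hypertonic 1 over isotonic 1 and in hypertonic 2 over isotonic 2 (background 94.1% of 15486 genes of at least 1 CPM), the exceptions being SLC12A8, SLC26A5 and SLC26A6. On CPM plus 0.1, hypertonic 1 was at least 2-fold above isotonic 1 for 5 of 43 carriers (background 8.08%) and at least 2-fold below it for 5 (background 13.6%). Hypertonic 2 was at least 2-fold above isotonic 2 for 2 (background 13.0%) and below it for 5 (background 8.36%). In 6 of the 43 (background 19.3%) both ratios passed 2-fold in opposite directions, namely SLC4A7, SLC8A3, SLC9A4, SLC9A8, SLC9A9 and SLC26A7.

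When the isotonic and hypertonic libraries of 1 number were left out together, the lone libraries were assumed to vary like the rescue libraries. For hypertonic 1 over isotonic 1, the number 1 fit then called 22 carriers higher (background 31.6% of all genes) and 13 lower (background 32.6%), 35 in all (background 64.2%). The number 2 fit called 14 higher (background 32.9%) and 23 lower (background 31.0%), 37 in all (background 63.9%). Of the 50 carriers, 30 were called in both fits, all 30 in opposite directions, and over all genes 58.0% were called in both and 58.0% in opposite directions. Isotonic 1 lay close to hypertonic 2, and isotonic 2 to hypertonic 1, so the 2 ratios were near inverses of each other. The opposite directions restate that grouping and are no separate result about the carriers. No carrier thus had a hypertonic change that was called in both numbers with 1 direction, and in this the carriers resembled the other genes.

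**Figure D2:**
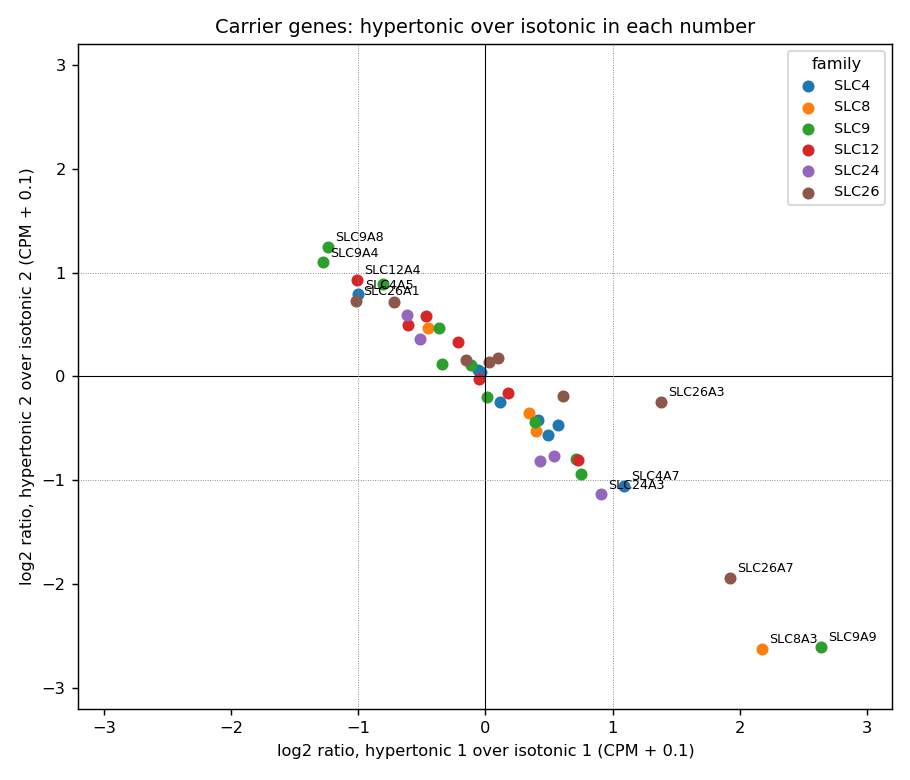
Log2 ratio of hypertonic to isotonic for the 43 carriers with a mean of at least 1 CPM, number 1 on the horizontal axis and number 2 on the vertical axis, coloured by family, with dotted lines at 2-fold. The points lie in the quadrants of opposite sign for 40 of 43 carriers.

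In the fit of all 6 libraries, all calls were in the comparisons with the rescue group, whose libraries lay close together. Against isotonic, edgeR called 6 of 50 carriers higher and 4 lower, which is 20% beside a background of 23.1% of all genes (9.61% higher and 13.5% lower). Against hypertonic it called 7 higher and 4 lower, 22% beside 23.6% (9.86% and 13.8%), and 10 carriers were called in both comparisons, which share the rescue libraries. The median log2 fold change of the 50 carriers was 0.25 against isotonic, beside -0.02 over all genes, and 0.26 against hypertonic, beside -0.02. The carriers were thus called about as often as other genes. The fits of 1 number, whose spread comes from the rescue libraries alone, called most genes tested.

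Against isotonic, the number 1 fit called 27 carriers higher (background 40.5%) and 16 lower (background 38.6%), which is 43 of 50 (background 79.1%). The number 2 fit called 25 higher (background 40.7%) and 18 lower (background 40.1%), also 43 (background 80.8%). In both fits 20 were higher (background 28.3%) and 14 lower (background 28.4%), and 3 (SLC4A1, SLC9A9 and SLC26A7) were called in opposite directions (background 10.3%). Against hypertonic, the number 1 fit called 24 higher (background 41.0%) and 17 lower (background 40.5%), which is 41 (background 81.4%). The number 2 fit called 26 higher (background 40.5%) and 16 lower (background 38.6%), which is 42 (background 79.1%). The 10 carriers that edgeR called over all 6 libraries against isotonic kept their direction in both fits, which reuse the same rescue libraries. Of these 10, the higher set consisted of SLC4A4, SLC8A1, SLC8B1, SLC12A8, SLC24A2 and SLC24A4, and SLC4A2, SLC26A5 and SLC26A10 were among the 4 lower.

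These fold changes use TMM scaling, which takes most genes as unchanged, whereas the CPM values are by library total. The TMM factors were 0.885 to 0.986 in the isotonic and hypertonic libraries and 1.14 and 1.15 in rescue, so a rise in CPM looks larger than the fitted one. Upper quartile scaling moved the median of all genes in rescue against isotonic up by 0.21 on the log2 scale, and library totals alone by 0.29. Over all genes, the split of higher and lower calls was 1749 and 2453 with TMM, 2091 and 1404 with upper quartile scaling, and 2050 and 1095 with library totals. Among the carriers it was 6 and 4 with TMM and 7 and 3 with both of the others. By library total, both rescue libraries lay above the other 4 for 22 of the 43 carriers of at least 1 CPM (background 43.6%) and below them for 10 (background 25.2%). With TMM scaling these counts were 19 (background 30.5%) and 15 (background 38.8%). The mean behind the 1 CPM limit includes the rescue libraries, for the carriers and for the background. Some carriers, among them SLC24A2 and SLC24A4, reached it only through rescue, which favours a place above the other 4.

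**Figure D3:**
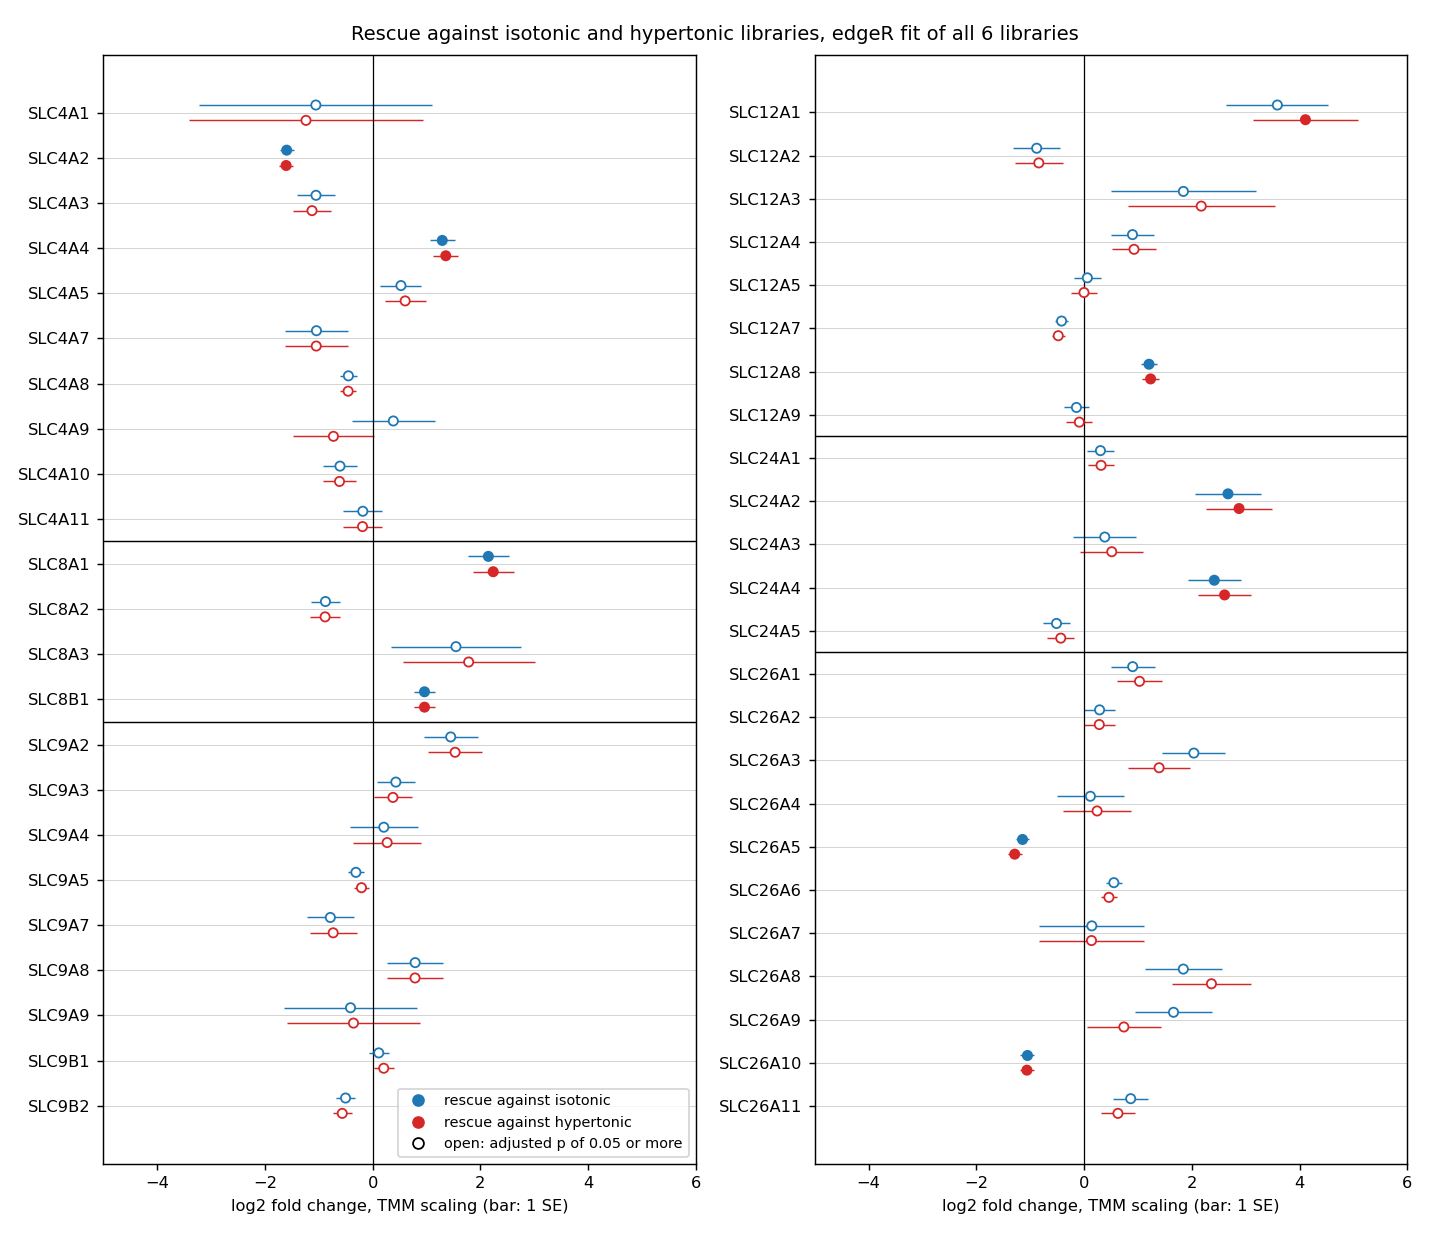
Log2 fold changes of 47 carriers in rescue against isotonic (blue) and hypertonic (red), from edgeR with TMM scaling, grouped by family, with bars of 1 SE and filled points where the adjusted p is under 0.05. Against isotonic, the 6 higher calls run from 0.96 (SLC8B1) to 2.67 (SLC24A2) and the lower calls shown from -1.05 (SLC26A10) to -1.60 (SLC4A2).

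The SLC4 family carries bicarbonate, and its members did not move together. SLC4A4, the electrogenic sodium-bicarbonate cotransporter NBCe1 (chr4:71062667-71572087), was at 4.95 and 5.82 CPM in isotonic, 5.37 and 4.89 in hypertonic, and 15.4 and 17.2 in rescue. It rose in rescue by 1.29 on the log2 scale (SE 0.234), 2.45-fold, against isotonic, with adjusted p = 0.0249 in edgeR. Against hypertonic the rise was 1.36 (SE 0.235), with adjusted p = 0.0222 in edgeR. The related electrogenic cotransporter SLC4A5 was at 23.4 and 13.2 CPM in isotonic, 11.6 and 23.0 in hypertonic, and 30.5 and 33.5 in rescue, and did not pass. SLC4A5 lies wholly within another row of the tables, AC006030.1, so reads of the pair may not have been kept apart.

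SLC4A7, the electroneutral sodium-bicarbonate cotransporter NBCn1 (chr3:27372721-27484420), showed the crossed pattern past 2-fold in both numbers, alone among the SLC4 carriers of at least 1 CPM. It was at 70.3 and 154 CPM in isotonic, 149.9 and 74.0 in hypertonic, and 67.1 and 68.9 in rescue. Hypertonic 1 was 2.13-fold above isotonic 1, and isotonic 2 was 2.07-fold above hypertonic 2, while rescue lay just below the lower pair (edgeR adjusted p = 0.264 against isotonic).

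The other SLC4 members of at least 1 CPM varied less. SLC4A3, a chloride-bicarbonate exchanger of heart and brain, was at 8.90 and 12.3 CPM in isotonic, 13.3 and 8.90 in hypertonic, and 6.47 and 6.20 in rescue. SLC4A8, a sodium-driven chloride-bicarbonate exchanger, was at 15.6 and 15.5 CPM in isotonic, 14.9 and 16.2 in hypertonic, and 14.5 and 13.4 in rescue. The rescue values of both lay below those of the other 4 libraries. SLC4A10, a neuronal sodium-bicarbonate transporter, was at 10.2 and 13.4 CPM in isotonic, 13.6 and 9.99 in hypertonic, and 8.84 and 10.3 in rescue. SLC4A11, known from the corneal endothelium, was at 10.2 and 13.4 CPM in isotonic, 14.4 and 9.02 in hypertonic, and 12.2 and 13.5 in rescue. None of these 4 passed either rescue comparison. SLC4A1, the anion exchanger of red blood cells, had 0 counts in isotonic 1, where 3 counts correspond to 0.0285 CPM, and at most 0.888 CPM elsewhere, and SLC4A9 stayed at or below 0.316 CPM.

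The SLC8 exchangers use the sodium gradient to move calcium, at the plasma membrane (SLC8A1 to SLC8A3) or in mitochondria (SLC8B1). SLC8A1 (chr2:40097270-40611053) was at 1.53 and 2.35 CPM in isotonic, 2.04 and 1.60 in hypertonic, and 9.63 and 11.7 in rescue, with no overlap between rescue and the rest. Its log2 fold change in rescue was 2.15 (SE 0.383), 4.43-fold, against isotonic (edgeR adjusted p = 0.0253) and 2.24 (SE 0.384), 4.72-fold, against hypertonic (edgeR adjusted p = 0.0230). SLC8A1 shares 157940 bases of its span with SLC8A1-AS1 on the opposite strand, a gene without a row of its own. Whether the counting used strand is not given, so reads of the pair may not have been kept apart. SLC8B1 (chr12:113298759-113359493) was at 21.6 and 14.5 CPM in isotonic, 15.8 and 20.0 in hypertonic, and 43.1 and 42.4 in rescue. It rose by 0.96 (SE 0.199), 1.95-fold, in both rescue comparisons (edgeR adjusted p = 0.0331 and 0.033). The gene PLBD2, which overlaps SLC8B1 over 928 bases on the opposite strand, stayed between 60.4 and 64.5 CPM in the 6 libraries.

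SLC8A3 and SLC8A2 did not pass. SLC8A3 (chr14:70044217-70189070) was at 1.04 and 5.99 CPM in isotonic, 5.06 and 0.889 in hypertonic, and 12.7 and 13.5 in rescue. Its spread within each labelled group was wide, since hypertonic 1 was 4.84-fold above isotonic 1 and isotonic 2 was 6.74-fold above hypertonic 2. SLC8A2, best known from brain, was at 14.4 and 17.9 CPM in isotonic, 18.3 and 13.9 in hypertonic, and 10.8 and 10.9 in rescue.

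**Figure D4:**
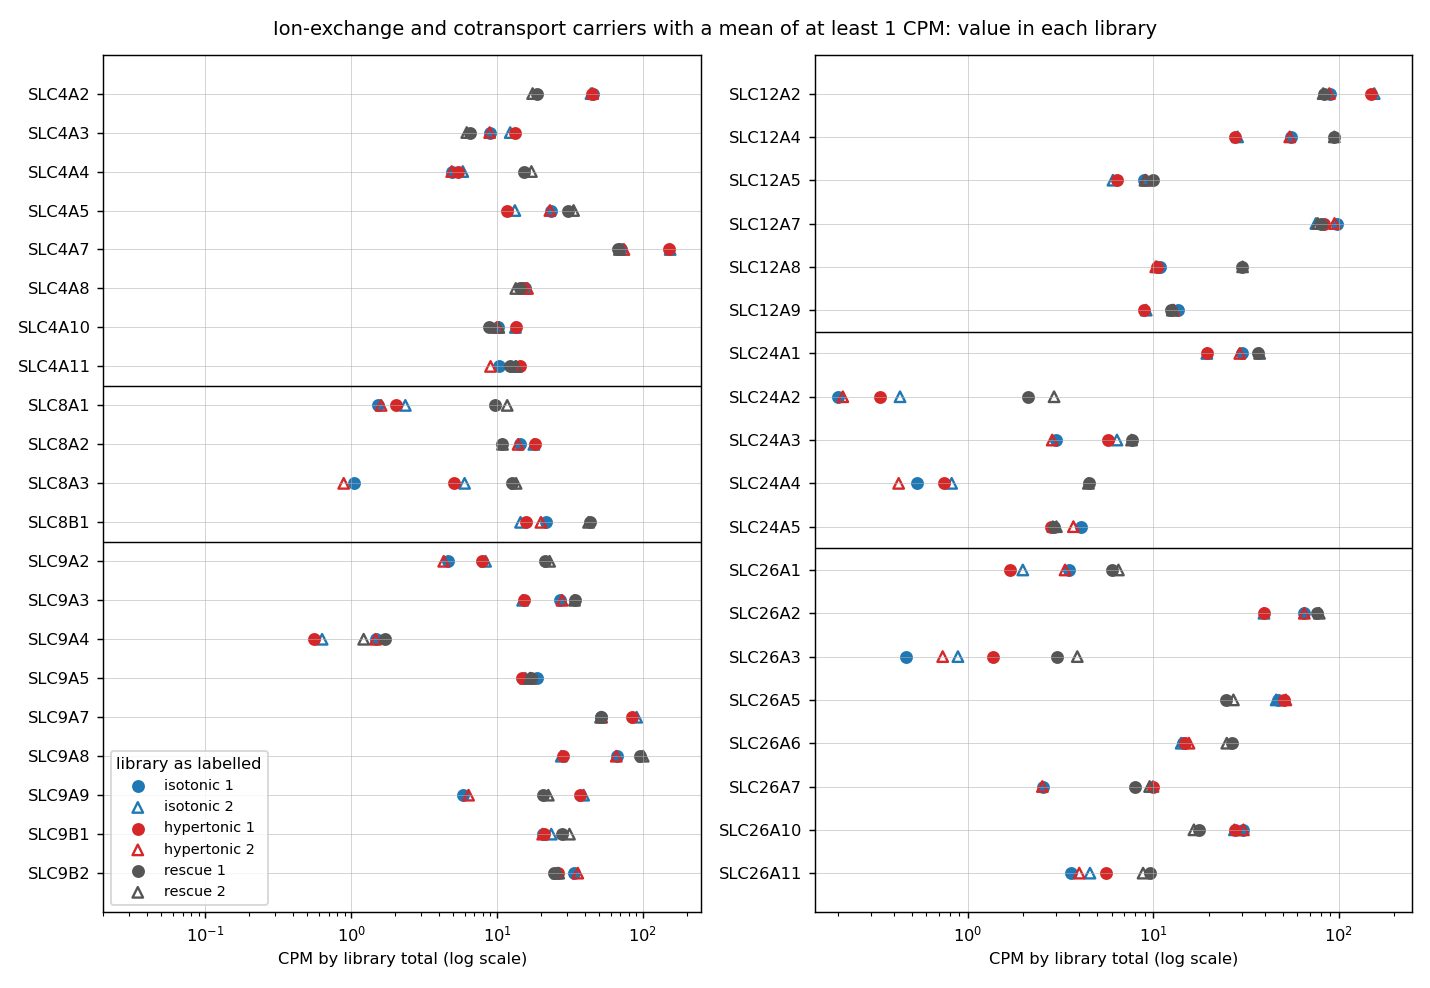
CPM by library total, on a log scale, of 40 carriers with a mean of at least 1 CPM, 1 row per gene by family and 1 point per library. The points of isotonic 1 and hypertonic 2 lie together for most carriers, as do those of isotonic 2 and hypertonic 1, and SLC8A1, SLC24A2 and SLC24A4 stand higher in both rescue libraries.

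The SLC9 exchangers trade sodium or potassium for protons. Among those of the plasma membrane, SLC9A2, an epithelial exchanger, was at 4.63 and 8.34 CPM in isotonic, 7.89 and 4.31 in hypertonic, and 21.2 and 22.9 in rescue. SLC9A3, the exchanger of kidney and gut that absorbs sodium, was at 26.9 and 15.0 CPM in isotonic, 15.4 and 27.9 in hypertonic, and 34.4 and 33.9 in rescue. Both were above the other 4 libraries in rescue by library total, and neither passed (for SLC9A2, edgeR adjusted p = 0.11 and 0.0983). SLC9A4, a stomach exchanger, was at 1.48 and 0.632 CPM in isotonic, 0.552 and 1.47 in hypertonic, and 1.72 and 1.22 in rescue. SLC9A5, known from brain, was at 18.7 and 15.6 CPM in isotonic, 14.8 and 17.0 in hypertonic, and 17.0 and 16.8 in rescue, and varied little.

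SLC9A7, of the trans-Golgi network (chrX:46599252-46759172), and SLC9A8, of the Golgi (chr20:49812713-49892242), moved oppositely across the crossed pairs. SLC9A7 was at 51.8 and 90.5 CPM in isotonic, 84.8 and 52.1 in hypertonic, and 51.7 and 51.2 in rescue. SLC9A8 was at 66.7 and 27.6 CPM in isotonic, 28.2 and 65.7 in hypertonic, and 95.4 and 100.3 in rescue. Isotonic 1 was 2.37-fold above hypertonic 1 for SLC9A8, and hypertonic 2 was 2.38-fold above isotonic 2, the reverse of SLC9A7, whose corresponding ratios were 1.64-fold and 1.74-fold the other way.

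SLC9A9, an endosomal exchanger (chr3:143265222-143848531), had the widest crossed difference within number 1 among the carriers of at least 1 CPM. It was at 5.84 and 39.2 CPM in isotonic, 36.9 and 6.38 in hypertonic, and 20.8 and 22.5 in rescue. Hypertonic 1 was 6.32-fold above isotonic 1 and isotonic 2 was 6.15-fold above hypertonic 2, with both rescue libraries in between. The rescue comparisons accordingly gave opposite calls in the number 1 and number 2 fits, and edgeR over all 6 libraries gave adjusted p = 0.838 against isotonic. The related SLC9B1 and SLC9B2, of a separate branch of the family, had no call. SLC9B1 was at 20.7 and 23.5 CPM in isotonic, 20.9 and 20.5 in hypertonic, and 27.6 and 31.3 in rescue. SLC9B2 was at 33.6 and 25.8 CPM in isotonic, 26.005 and 35.7 in hypertonic, and 24.7 and 26.4 in rescue. By library total, SLC9B1 stood above the other libraries in rescue and SLC9B2 overlapped them. With TMM scaling, SLC9B1 overlapped the other libraries in rescue and SLC9B2 lay below them.

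The SLC12 family couples chloride to potassium or sodium. SLC12A4, the widely expressed potassium-chloride cotransporter KCC1 (chr16:67943474-67969601), was at 55.7 and 28.5 CPM in isotonic, 27.6 and 54.5 in hypertonic, and 94.9 and 94.8 in rescue. It ran opposite to SLC12A2 across the crossed pairs, being 2.02-fold higher in isotonic 1 than in hypertonic 1 and 1.91-fold higher in hypertonic 2 than in isotonic 2. Its rescue difference did not pass in edgeR (adjusted p = 0.18 and 0.168), although both rescue libraries lay above the other 4. LCAT, which overlaps SLC12A4 over 658 bases on the same strand, was at 9.36 and 3.63 CPM in isotonic, 4.15 and 9.08 in hypertonic, and 21.9 and 23.3 in rescue.

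SLC12A5 and SLC12A7 differed less. SLC12A5, the neuronal KCC2, was at 8.91 and 6.08 CPM in isotonic, 6.41 and 9.16 in hypertonic, and 9.98 and 9.04 in rescue. SLC12A7 (KCC4) was at 97.4 and 75.4 CPM in isotonic, 83.9 and 95.0 in hypertonic, and 80.6 and 77.2 in rescue. Neither passed either rescue comparison (for SLC12A7 against isotonic, edgeR adjusted p = 0.071).

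SLC12A8, a more distant family member whose transport role is debated (chr3:125082636-125212864), varied little within each group. It was at 10.9 and 10.5 CPM in isotonic, 10.5 and 10.3 in hypertonic, and 30.1 and 30.4 in rescue. The rescue mean of 30.2 ± 0.164 CPM (SD, n = 2) compared with 10.7 ± 0.262 CPM in isotonic. The edgeR log2 fold change was 1.21 (SE 0.154), 2.31-fold, against isotonic with adjusted p = 0.0127, and 1.24 (SE 0.154) against hypertonic with adjusted p = 0.0119. SLC12A9, an orphan member, was at 13.6 and 9.18 CPM in isotonic, 8.91 and 13.0 in hypertonic, and 12.5 and 12.7 in rescue, and did not pass.

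The kidney cotransporters SLC12A1 (NKCC2) and SLC12A3 (NCC) were under 1 CPM on average. SLC12A1 had 8 and 19 counts in isotonic, 16 and 4 in hypertonic, and 204 and 221 in rescue, so both rescue libraries stood apart at 1.92 and 2.40 CPM. It passed in edgeR against hypertonic (adjusted p = 0.0467) and not against isotonic (adjusted p = 0.0607). SLC12A3 was at or below 0.340 CPM in the 6 libraries.

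The SLC24 exchangers extrude calcium in return for sodium while carrying potassium along with the calcium, and both of their calls were rises from very low levels. SLC24A2, known from retinal cones and brain (chr9:19507452-19786928), was at 0.199 and 0.432 CPM in isotonic, 0.335 and 0.212 in hypertonic, and 2.11 and 2.92 in rescue. Its log2 fold change was 2.67 (SE 0.614), 6.37-fold, against isotonic with edgeR adjusted p = 0.0439. Against hypertonic it was 2.88 (SE 0.619), 7.35-fold, with edgeR adjusted p = 0.0376. SLC24A4, known from tooth enamel and the olfactory system (chr14:92322581-92501483), was at 0.532 and 0.820 CPM in isotonic, 0.749 and 0.425 in hypertonic, and 4.49 and 4.48 in rescue. Its log2 fold change was 2.42 (SE 0.494), 5.34-fold, against isotonic and 2.61 (SE 0.498), 6.1-fold, against hypertonic, with edgeR adjusted p = 0.0337 and 0.0287. As given above, summed olfactory receptor counts also stood higher in rescue, and what these low levels have in common was not tested.

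The other 3 SLC24 genes did not pass. SLC24A1, of retinal rods, was at 30.1 and 19.5 CPM in isotonic, 19.6 and 29.3 in hypertonic, and 36.8 and 37.5 in rescue. SLC24A3 was at 2.99 and 6.39 CPM in isotonic, 5.69 and 2.86 in hypertonic, and 7.66 and 7.65 in rescue. SLC24A5, an exchanger of pigment granules, was at 4.08 and 2.88 CPM in isotonic, 2.83 and 3.72 in hypertonic, and 2.93 and 3.01 in rescue. By library total, SLC24A1 and SLC24A3 stood above the other libraries in rescue, and SLC24A5 lay within them. With TMM scaling, SLC24A1 still stood above them, SLC24A3 overlapped them and SLC24A5 lay below them.

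The SLC26 family, which includes anion exchangers, held 2 of the 4 falls. SLC26A5, prestin, the motor protein of outer hair cells (chr7:103352730-103446177), was at 47.2 and 46.1 CPM in isotonic, 50.7 and 51.9 in hypertonic, and 24.8 and 27.1 in rescue. Its log2 fold change was -1.14 (SE 0.127), 2.21-fold lower, against isotonic and -1.29 (SE 0.128), 2.44-fold lower, against hypertonic, with edgeR adjusted p = 0.0109 and 0.00953. SLC26A5 shares 16666 bases with PSMC2, a proteasome subunit gene on the opposite strand, which was at 56.8 and 54.6 CPM in isotonic, 54.8 and 57.2 in hypertonic, and 36.4 and 38.6 in rescue. Whether the counting used strand is not given in the sources used here, so reads of the pair may not have been kept apart and the SLC26A5 value is uncertain.

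SLC26A10 (chr12:57619527-57626151) was at 30.7 and 27.4 CPM in isotonic, 27.6 and 30.7 in hypertonic, and 17.8 and 16.6 in rescue. Its log2 fold change was -1.05 (SE 0.130), 2.07-fold lower, against isotonic and -1.06 (SE 0.130) against hypertonic, with edgeR adjusted p = 0.0122 and 0.0116. It carries the same limit, since it overlaps B4GALNT1 over 2742 bases on the opposite strand. B4GALNT1 was at 61.5 and 52.0 CPM in isotonic, 54.5 and 60.3 in hypertonic, and 37.0 and 34.1 in rescue, lower in rescue like SLC26A10.

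SLC26A1 and SLC26A2 carry sulfate, and neither passed. SLC26A2, the sulfate carrier needed by cartilage and bone, was at 65.5 and 39.6 CPM in isotonic, 39.6 and 65.3 in hypertonic, and 76.9 and 78.6 in rescue. SLC26A1 was at 3.54 and 1.98 CPM in isotonic, 1.70 and 3.35 in hypertonic, and 6.01 and 6.50 in rescue. Both followed the crossed pairs in the direction of SLC12A4, with rescue above the other 4 libraries by library total. SLC26A1 shares 7823 bases with DGKQ on the same strand and 6444 with IDUA on the opposite strand. DGKQ was at 7.33 and 4.06 CPM in isotonic, 3.77 and 6.01 in hypertonic, and 9.43 and 9.23 in rescue. IDUA was at 4.04 and 1.87, 1.83 and 4.17, and 5.78 and 5.99 CPM. Reads of these genes may not have been kept apart, so the SLC26A1 value is uncertain.

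Among the chloride-bicarbonate exchangers of the family, SLC26A6 was at 14.4 and 14.2 CPM in isotonic, 14.8 and 15.6 in hypertonic, and 26.6 and 25.0 in rescue (edgeR adjusted p = 0.0591 against isotonic). SLC26A3, of the gut, was at 0.465 and 0.887 CPM in isotonic, 1.37 and 0.734 in hypertonic, and 3.03 and 3.90 in rescue (edgeR adjusted p = 0.0729 against isotonic). Both stood higher in the 2 rescue libraries than in the other 4 without passing. SLC26A7, known from kidney, stomach and thyroid, showed a crossed difference, at 2.56 and 9.99 CPM in isotonic, 10.0 and 2.53 in hypertonic, and 7.98 and 9.58 in rescue. SLC26A11, a further member of the family, was at 3.62 and 4.57 CPM in isotonic, 5.58 and 4.00 in hypertonic, and 9.60 and 8.83 in rescue. The remaining 3 were under 1 CPM on average: SLC26A4 (pendrin) ran from 0.406 to 1.02 CPM, SLC26A8 (testis) from 0.0789 to 1.03 and SLC26A9 from 0.111 to 0.793.

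Summed by family, the SLC8 and SLC24 genes stood higher in rescue under both scalings. The 4 SLC8 genes summed to 38.5 and 40.7 CPM in isotonic, 41.1 and 36.4 in hypertonic, and 76.1 and 78.5 in rescue. The 5 SLC24 genes summed to 37.9 and 30.0 CPM in isotonic, 29.2 and 36.6 in hypertonic, and 54.0 and 55.6 in rescue. With TMM scaling the rescue sums were 66.7 and 68.1 for SLC8 and 47.3 and 48.2 for SLC24, still above the other 4 libraries.

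For the SLC9, SLC12 and SLC26 families the order depended on the scaling. The SLC9 sum was 294 to 320 CPM in the isotonic and hypertonic libraries and 397 and 412 in rescue, but with TMM scaling it was 298 to 360.0 and 348 and 357, which overlap. The SLC12 sum was 295 to 312 CPM outside rescue and 347 and 344 in it, but with TMM scaling it was 301 to 352 outside rescue and 304 and 299 in it, which overlap. The SLC26 sum was 146 to 175 CPM outside rescue and 175 and 179 in it, so rescue 1 and hypertonic 2 did not differ at this precision. With TMM scaling it was 164 to 179 outside rescue and 154 and 155 in it, below the other 4 libraries. The SLC4 sum was 174 and 181 CPM in rescue, below the 189 to 272 CPM of the other 4 libraries, and stayed below them with TMM scaling (153 and 157 against 192 to 307).

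**Figure D5:**
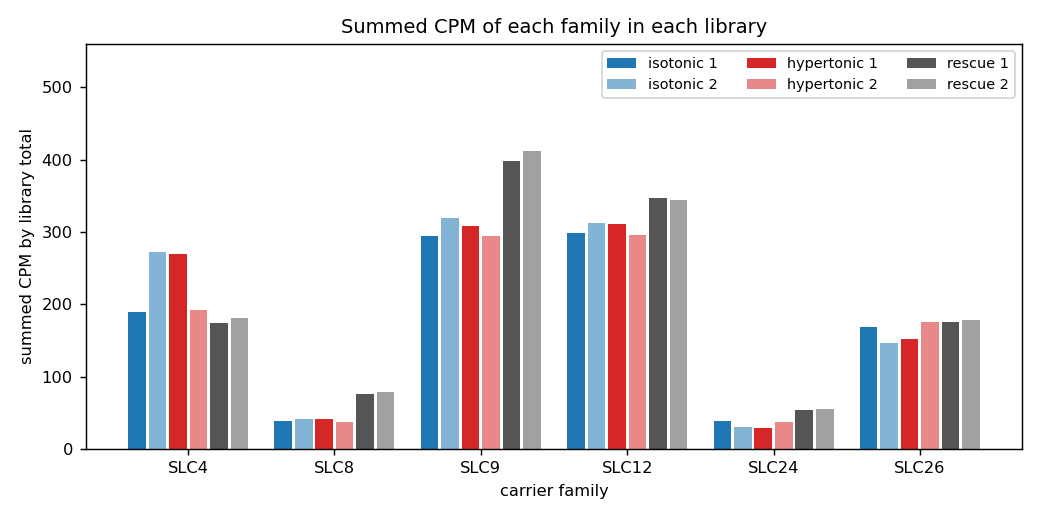
Summed CPM of each family by library total, with 1 bar per library. SLC8 is at 76.1 and 78.5 CPM in rescue against at most 41.1 elsewhere, and SLC24 at 54.0 and 55.6 against at most 37.9.

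Carriers with long genes held most of the higher calls in rescue against isotonic, but the median fold changes were close. The median log2 fold change was 0.28 for carriers with a span of at least 100 kb and 0.25 for shorter ones. Of the 18 carriers with a span of at least 100 kb, 5 were higher and 0 lower in rescue against isotonic. Of the 32 shorter ones, 1 was higher and 4 were lower. Over all genes tested, 522 of 3582 with a span of at least 100 kb were higher and 429 lower, beside 1225 and 2022 of 14580 shorter ones. Over the 50 carriers, Spearman's rho between span and log2 fold change was 0.22, and over 18162 genes it was 0.01, which describes a relation over genes of the same libraries.

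The partners and regulators of these carriers were read from a list of 26 genes, all measured: scaffolds, carbonic anhydrases, calcineurin-like cofactors, and the WNK, OXSR1 and STK39 kinases with their partners. In hypertonic against isotonic edgeR called 0 of the 26. In rescue against isotonic it called 1 higher and 2 lower, and against hypertonic 1 higher and 3 lower, beside a background of 23.1% and 23.6% of all genes in either direction. The median log2 fold change of the 26 against isotonic was -0.49, beside -0.02 over all genes. PDZK1, a scaffold that binds several of these carriers, was at 8.45 and 7.85 CPM in isotonic, 7.70 and 8.64 in hypertonic, and 17.6 and 21.0 in rescue (edgeR log2 fold change against isotonic 0.95, adjusted p = 0.0245). EZR, ezrin, which ties such scaffolds to actin, was at 381 and 457 CPM in isotonic, 461 and 372 in hypertonic, and 202 and 193 in rescue (edgeR log2 fold change -1.39, adjusted p = 0.0212). AHCYL1, also called IRBIT, a regulator of sodium-bicarbonate cotransporters, was at 193 and 178 CPM in isotonic, 178 and 194 in hypertonic, and 153 and 150.3 in rescue (edgeR log2 fold change -0.59, adjusted p = 0.0172). Rescue did not overlap the other libraries in any of these 3. The fourth, SLC9A3R2, a scaffold of SLC9A3, was called lower against hypertonic only (edgeR adjusted p = 0.0437).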

How the data were processed

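RNA counts of 50 carrier genes were compared in 6 libraries of U2OS cells. The libraries were made from rRNA-depleted total RNA with a uridine digestion step, per the labels' protocols. The submitters' processing notes name bcl2fastq, Bowtie2, TopHat2 and bedtools, with the build GRCh38 (hg38). Tool versions, the annotation and whether counting used strand were not given in the sources used here. Each library came as a table that the authors deposited, with unnormalized whole-number counts for 19940 gene rows. 33 names stood on more than 1 row, none of them a carrier.

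Groups came from the sample titles. CPM scales counts to the library total. All 6 libraries entered 1 edgeR 4.0.16 quasi-likelihood fit (R 4.3.3) with a mean per group, filterByExpr, TMM scaling, robust dispersion and two-sided Benjamini-Hochberg adjustment over 18208 genes at 0.05. All 50 carriers passed the filter. SEs were derived from the F statistic. The biological coefficient of variation was 38.4%, with 3 residual degrees of freedom. The steps were tested on simulated data. Alternatives were limma 3.58.1 voom, DESeq2 1.42.0, other scalings, no filter, a replicate block, and fits without libraries. Ratios of 2 libraries carry no test. Floors of 3 counts cover counting error only.

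Carriers averaging 1 CPM or more were named with all values, and others by range; 3 carriers of this level are counted but not reported by name here. Of 26 listed partners, those that were called and averaged 5 CPM or more were named. Lists of bone lineage, epithelial, leukocyte, endothelial and kidney tubule markers were summed. Members and lists were chosen with earlier results of these data known. Gene positions are from GENCODE release 29 on GRCh38, and promoters from RefSeq GRCh38.p14. Of the 50 carriers, 22 have a span that overlaps another row. Overlaps with genes that have no row are not in this count.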

Additional observations from a re-analysis of the deposited data

How the results depend on the processing

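The counts of carriers called rest on few libraries. In hypertonic against isotonic, 0 carriers became 35 in the number 1 fit and 37 in the number 2 fit; every other setting gave 0, including each left-out library (0 to 0). In rescue against isotonic, 10 became 21 with DESeq2, 0 with the replicate block and 43 in each number fit; leaving out 1 library gave 0 to 8, with 0 without either isotonic or either rescue library. In rescue against hypertonic, 11 became 19 with DESeq2, 0 with the block, 41 in the number 1 fit and 42 in the number 2 fit; leaving out 1 library gave 0 to 10, with 0 without either hypertonic or either rescue library. Over all genes, DESeq2 called 7041 and 7105 in the 2 rescue comparisons, the number 1 fit 14591 and 15027, and the number 2 fit 14898 and 14586, against 4202 and 4304 in edgeR. Of the 21 single-gene results past the threshold, none reversed under any setting, and all 21 held with DESeq2 and limma voom. All 21 also kept their direction in both number fits. Those fits reuse the rescue libraries, take their spread from them alone and call most genes, so a call there is no separate check. With library totals or upper quartile scaling 19 held, and without the filter 20 held. All 21 kept their direction but missed the threshold with the replicate block and without either rescue library. A group left with 1 library was assumed to vary like the others. For the replicate block and the left-out libraries, calls over all genes are not given here. Whether the carriers lost calls there more often than other genes therefore cannot be told. The numbers do not pair the samples: deviations of same-numbered libraries correlated at -0.905 between isotonic and hypertonic, -0.0254 between isotonic and rescue and 0.0379 between hypertonic and rescue. Pairing isotonic 1 with hypertonic 2 and isotonic 2 with hypertonic 1, an alternative chosen after seeing the data, called 0 of 49 carriers and 21 genes in all. Depth limits the values of the 7 carriers that averaged under 1 CPM. The cause of these differences was not tested.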
